A study of Homo sapiens with 5 samples.

Results

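CDX1, CDX2, PDX1, HNF4A, HNF4G and GATA6 encode transcription factors of the gut lineage, and CDH17 encodes liver-intestine cadherin, an adhesion protein of the intestinal cell surface. These 7 genes, of 60651 listed, were taken by symbol, and each matched 1 gene identifier. They were chosen by their known roles and by measured values of these same libraries, among them their levels and the differences of CDX2, HNF4G and CDH17 between the groups. Their levels and changes are therefore given as a description, with no test. The remaining gut genes below come from lists of known function, also drawn up with earlier results known, and are tested in the fit across all genes.

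The libraries were made from poly(A)-selected RNA of COLO 320DM, a line from a colorectal adenocarcinoma, and the study asked how the deubiquitinase USP17 acts in this cancer. The USP17 siRNA group held 3 libraries, labelled siIDT, sino4 and siSMPLT, and the control group held 2, siL2 and siNT, with non-silencing siRNAs. The USP17 libraries were assigned by elimination, since the series names only its controls. All libraries come from this 1 line, and no time after transfection is given in the sources used here. Whether the libraries came from separate cultures is not stated. The p-values therefore rest on library-to-library spread that may be technical, and that holds the effects peculiar to each siRNA.

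The intestinal epithelium keeps its identity through a small network of transcription factors. CDX1 and CDX2 are caudal-type homeobox proteins that specify hindgut and intestine, and CDX2 binds the control regions of many enterocyte genes. HNF4A and HNF4G are nuclear receptors that act together in enterocytes, GATA6 is a zinc-finger factor of endoderm, and PDX1 is a homeobox factor of the pancreas and duodenum. CDX2 and CDH17 are used as markers of intestinal origin in tumour pathology.

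Reads in genes came to 31704821 to 36276143 per library, and 3 reads, the most that a count of 0 allows, were 0.0827 to 0.0946 CPM, the reads of a gene scaled to a common library size. Neither that limit nor any count here covers more than counting error. The 30 genes of the USP17L family, which encode USP17 and near-identical copies, had 0 reads in every library, in RSEM's estimates too, so the counts hold no check of the knockdown. CTNNB1 fell from 341 to 200 CPM (log2 fold change -0.77 ± 0.07 SE, adjusted p 0.00215, edgeR quasi-likelihood test). CTNNB1 encodes beta-catenin, which the series title names. Of 9 markers of colon epithelium, 4 passed the read filter, KRT8, KRT18, KRT20 and EPCAM. KRT19 had 1 or 0 reads, CDH1 1 to 6, LGALS4 2 or fewer and PHGR1 0 in each library. Summed levels of this list were 167 to 187 TPM, RSEM's level per transcript length, with USP17 siRNA and 185 to 203 TPM in the controls. Leukocyte markers, PTPRC above all, summed to 24.6 to 27.7 against 22.9 to 28.3 TPM, fibroblast markers to 14.7 to 19.8 against 18.7 to 21.6 TPM, neuroendocrine markers to 4.87 to 5.95 against 4.06 to 8.24 TPM and endothelial markers to at most 0.22 TPM. Their part in the results below was not tested. In these bulk libraries fewer cells of a type and less RNA per cell cannot be told apart.

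CDX2 was among the most abundant transcripts of the line, and its paralog CDX1 was all but silent. CDX2 had 53559, 52650 and 53918 reads in siIDT, sino4 and siSMPLT and 71877 and 70889 in siL2 and siNT. Its level per length was 1484, 1467 and 1515 TPM in the USP17 libraries and 1846 and 1751 TPM in siL2 and siNT. By TPM it ranked 103, 108 and 105 among all genes with the USP17 siRNAs and 85 and 92 with the controls. It took 0.163% to 0.209% of all reads in genes.

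CDX2 was lower in every USP17 library than in either control. It measured 1639, 1631 and 1686 CPM in siIDT, sino4 and siSMPLT against 2098 and 2007 CPM in siL2 and siNT, or 1652 ± 29.7 (SD, n = 3) against 2052 ± 64.4 CPM (SD, n = 2). The log2 fold change was -0.31 ± 0.06 (SE), a change of -19.5%. The USP17 libraries spanned 0.05 on the log2 scale and the controls differed by 0.06. Both were less than the median over all tested genes (0.20 and 0.19), most of which had far fewer reads. Even after this difference CDX2 stood 44.4 to 60.8 times above PDX1 per length in the USP17 libraries, against 71.4 and 78.9 times in siNT and siL2. CDX1 had 1 read in siIDT and 0 in the other 4 libraries, so no fold is given. CDX1 lies on chromosome 5 from 150166795 to 150184558 (GRCh38, GENCODE 29, plus strand), and CDX2 on chromosome 13 from 27962137 to 27971139 (minus strand).

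**Figure D1:**
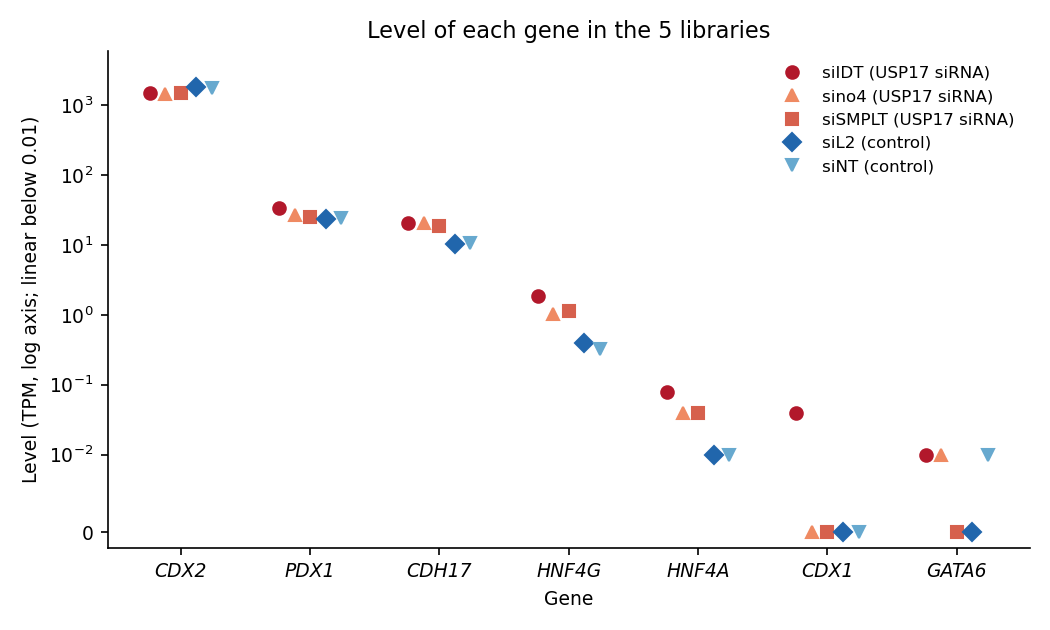
Level in TPM of each of the 7 genes (horizontal axis) in the 5 libraries, 1 point per library; the vertical axis is logarithmic and linear below 0.01. CDX2 lies between 1467 and 1846 TPM in all libraries, while CDX1, HNF4A and GATA6 lie at or below 0.08 TPM.

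The start of CDX2 is shown because it belongs to the most abundant of the 7 genes. The window holds 250 bases before and 50 after the RefSeq start (GRCh38.p14, chr13:27969266-27969565, minus strand). Capitals mark matches, on either strand, to TTTAT, the core of CDX sites, to AGATAA, known for GATA factors, and to CAAAG, part of HNF4 sites. Positions are counted from the start, with negative values before it.
CDX2: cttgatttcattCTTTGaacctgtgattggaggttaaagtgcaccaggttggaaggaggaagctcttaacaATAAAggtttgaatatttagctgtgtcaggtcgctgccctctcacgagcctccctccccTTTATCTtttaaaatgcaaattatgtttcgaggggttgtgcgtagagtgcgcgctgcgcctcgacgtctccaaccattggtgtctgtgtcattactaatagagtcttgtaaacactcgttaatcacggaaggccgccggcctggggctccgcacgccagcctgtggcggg
TTTAT matched at -179 and -120, and the match at -120 overlaps that to AGATAA at -119. CAAAG matched at -238. Of 35116 RefSeq windows of this length, 34.9% hold TTTAT, 10.3% AGATAA and 47.5% CAAAG, which sets the background for these matches. They are a description of letters and show no binding.

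PDX1, the pancreatic and duodenal factor, was expressed at a moderate level. It had 2011, 1619 and 1510 reads in siIDT, sino4 and siSMPLT and 1531 and 1650 in siL2 and siNT. Levels were 61.5, 50.1 and 47.2 CPM against 44.7 and 46.7 CPM, or 53.0 ± 7.56 (SD, n = 3) against 45.7 ± 1.43 CPM (SD, n = 2). The siIDT library stood highest, and siSMPLT lay only just above siNT. The log2 fold change was 0.21 ± 0.12 (SE), and it was 0.09 without siIDT. Single USP17 libraries lay 0.43 (siIDT), 0.13 (sino4) and 0.05 (siSMPLT) above the mean of the controls on the log2 scale.

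PDX1 and CDX2 are neighbours in the ParaHox cluster, a homeobox cluster that also holds GSX1. PDX1 lies on chromosome 13 from 27920020 to 27926231 (plus strand), 35906 bases from CDX2. Their differences had opposite signs, CDX2 lower and PDX1 slightly higher with USP17 siRNA, and the contrast between the 2 was not tested. GSX1, and URAD next to CDX2, had 0 reads in every library, and FLT3, the receptor gene beyond URAD, had at most 4. The noncoding genes between and beside them were low, PLUT with 24 to 36 reads (log2 fold change 0.33 ± 0.28 SE) and LINC00543 with 29 to 40 (-0.09 ± 0.23 SE). POLR1D, a subunit shared by RNA polymerases I and III, was abundant on one flank at 234 to 294 CPM (log2 fold change -0.10 ± 0.10 SE, adjusted p 0.533, edgeR). PAN3, a subunit of a poly(A) nuclease on the other flank, rose from 75.9 and 98.5 CPM in siL2 and siNT to 122, 117 and 116 CPM (log2 fold change 0.44 ± 0.11 SE, adjusted p 0.0398, edgeR). Its call was lost without siIDT (0.125), sino4 (0.14), siSMPLT (0.0848) or siL2 (0.0526). PAN3 then had a log2 fold change of 0.42 without siIDT, 0.45 without sino4 or siSMPLT and 0.27 without siL2. PAN3-AS1, an antisense gene beside PAN3, had 128 to 157 reads per library (log2 fold change 0.09 ± 0.17 SE, adjusted p 0.78, edgeR). DNA copy number was not measured here.

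**Figure D2:**
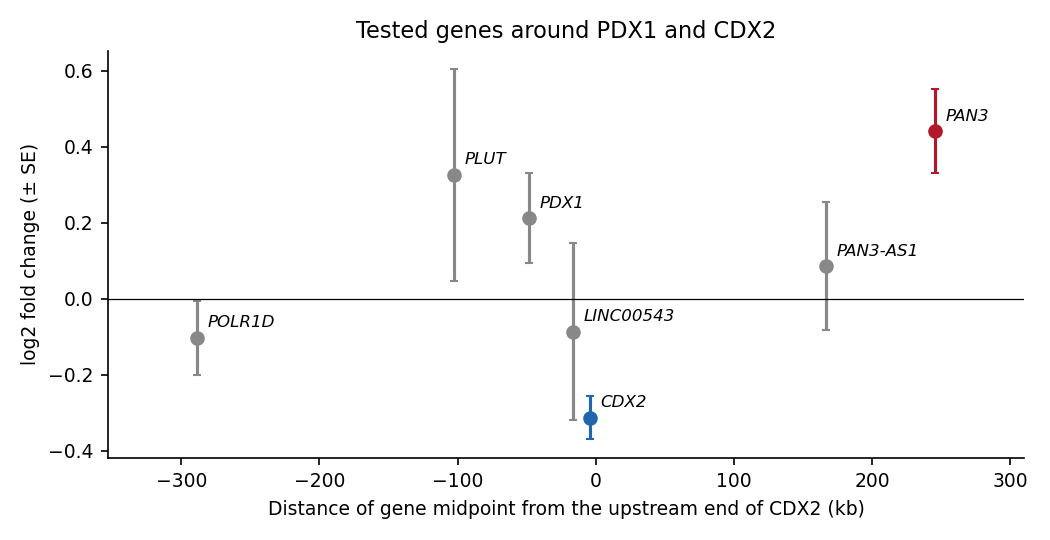
Log2 fold change, USP17 siRNA over control siRNA, with its SE, of the tested genes around PDX1 and CDX2, against the distance in kb of each gene's midpoint from the upstream end of CDX2. Blue and red mark genes past the threshold; CDX2 lies at -0.31, PDX1 at 0.21 and PAN3 at 0.44.

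Over all loci, 64 further genes lay within 200 kb of the 7 genes and 25 were tested. Of these 1 rose, PAN3, and 1 fell, HMGXB3, which lies 113653 bases from CDX1. Both were singled out after their values were seen. Over all 16341 tested genes 10.5% were called, 4.64% higher and 5.82% lower, and nothing is read from the count of called neighbours. HMGXB3 measured 135, 132 and 150 CPM in siIDT, sino4 and siSMPLT against 225 and 256 CPM in siL2 and siNT (log2 fold change -0.79 ± 0.09 SE, adjusted p 0.00427, edgeR), and it kept its call in every setting tried. The median log2 fold change of these neighbours was 0.003, against 0.005 over all tested genes. The antisense genes HNF4A-AS1 and GATA6-AS1 had 2 and 0 reads in all libraries together.

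HNF4A, the nuclear receptor that is a main regulator of enterocytes and hepatocytes, was nearly absent. It had 1, 4 and 2 reads in siIDT, sino4 and siSMPLT and 2 and 1 in siL2 and siNT, and no fold is given because both groups lie near the limit of counting. Its TPM of 0.01 to 0.08 rests on these few reads. GATA6 had 1 read in siIDT, sino4 and siNT and 0 in the other two. HNF4A lies on chromosome 20 from 44355700 to 44434596 and GATA6 on chromosome 18 from 22169443 to 22202528, both on the plus strand. HNF4A is transcribed from alternative promoters, and the RefSeq windows of both are shown (GRCh38.p14, plus strand) because hardly any read fell in the gene. The upstream one is at chr20:44355449-44355748 and the downstream one at chr20:44400989-44401288, with capitals as for CDX2.
HNF4A upstream: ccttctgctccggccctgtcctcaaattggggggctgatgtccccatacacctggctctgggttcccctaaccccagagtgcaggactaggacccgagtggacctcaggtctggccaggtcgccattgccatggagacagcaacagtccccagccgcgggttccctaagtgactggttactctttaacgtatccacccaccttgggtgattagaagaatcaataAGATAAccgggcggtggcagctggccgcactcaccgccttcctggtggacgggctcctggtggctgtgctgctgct
HNF4A downstream: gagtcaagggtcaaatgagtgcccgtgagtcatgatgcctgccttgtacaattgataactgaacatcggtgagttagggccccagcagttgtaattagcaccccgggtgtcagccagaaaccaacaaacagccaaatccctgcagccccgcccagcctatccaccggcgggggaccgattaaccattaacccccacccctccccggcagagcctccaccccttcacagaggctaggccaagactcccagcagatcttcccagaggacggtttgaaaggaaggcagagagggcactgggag
The upstream window held AGATAA at -26. The downstream window held none of the 3 motifs, and neither window held TTTAT or CAAAG. RefSeq windows were matched for 3 of the 7 genes, CDX2, HNF4A and GATA6.

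The paralog HNF4G was low in the controls and higher in every USP17 library. Its reads numbered 124, 74 and 99 in siIDT, sino4 and siSMPLT against 37 and 33 in siL2 and siNT. Levels were 3.79, 2.29 and 3.10 CPM against 1.08 and 0.934 CPM, or 3.06 ± 0.751 (SD, n = 3) against 1.01 ± 0.103 CPM (SD, n = 2). The groups did not overlap, and siIDT was highest. The log2 fold change was 1.60 ± 0.26 (SE), or 3.03-fold, and single libraries lay 1.86 (siIDT), 1.14 (sino4) and 1.57 (siSMPLT) above the controls. The level per length was still small, at 1.89, 1.03 and 1.12 TPM against 0.39 and 0.32 TPM.

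RSEM's estimate of the mean transcript length of HNF4G, a readout the choice of genes did not use, was 2822, 3250 and 4017 bases (effective length) in siIDT, sino4 and siSMPLT and 4110 and 4017 in siL2 and siNT. The siSMPLT value equalled that of siNT, and the estimates rest on 31 to 115 expected reads. The difference was not tested. For CDX2 the estimates were 1533 to 1548 against 1540 and 1563 bases, for CDH17 3482 to 3575 against 3542 and 3596, and for PDX1 2529 in every library.

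CDH17, the cadherin, was higher in every USP17 library than in either control. It had 1636, 1678 and 1525 reads in siIDT, sino4 and siSMPLT against 929 and 964 in siL2 and siNT. Levels were 50.1, 52.0 and 47.7 CPM against 27.1 and 27.3 CPM, or 49.9 ± 2.15 (SD, n = 3) against 27.2 ± 0.124 CPM (SD, n = 2). The controls differed by 0.01 on the log2 scale and the USP17 libraries by 0.12. The log2 fold change was 0.88 ± 0.08 (SE), or 1.83-fold, with 0.88, 0.93 and 0.81 in siIDT, sino4 and siSMPLT. Its level per length was 20.4, 20.4 and 18.6 TPM against 10.4 and 10.6 TPM. HNF4G and CDH17 lie on chromosome 8, from 75407914 to 75566843 (plus strand) and from 94127171 to 94217303 (minus strand).

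**Figure D3:**
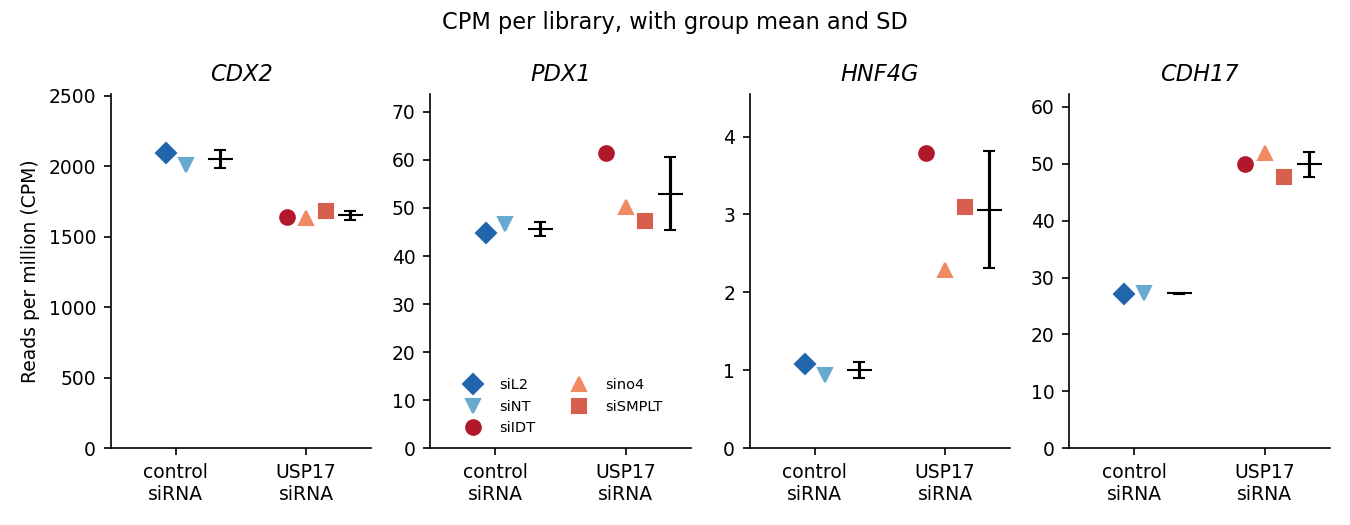
CPM in each library (points) of the 4 genes that passed the read filter, with the mean and SD of each group beside the points; axes start at 0. CDX2 is 1652 against 2052 CPM, PDX1 53.0 against 45.7, HNF4G 3.06 against 1.01 and CDH17 49.9 against 27.2 CPM.

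Of the 7 genes, 4 passed the filter on low counts and 3 did not (CDX1, HNF4A and GATA6). HNF4G and CDH17 higher and CDX2 lower are calls of the same fit whose values chose these genes, so they are no support and nothing is read from their count. Over all 16341 tested genes 10.5% were called, 4.64% higher and 5.82% lower. All 4 that passed had no overlap between the groups, PDX1 by a small margin, as had 45.9% of tested genes. As a description, the log2 fold change of CDX2 was -0.31 without siIDT and -0.30 without sino4, and over all settings that left out 1 library it lay between -0.35 and -0.28. CDX2 was not called in those 2 settings, in which the calls over all genes numbered 349 and 130 in place of 1710. Per length the order was CDX2, PDX1, CDH17, HNF4G, then HNF4A, CDX1 and GATA6 at the limit of detection. PDX1 stood 2.24 and 2.32 times above CDH17 in siL2 and siNT and at most 1.64 times in the USP17 libraries, where PDX1 was still the higher in each. HNF4A, CDX1 and GATA6 cannot be ordered at this depth.

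The genes with the nearest pattern were found by the root mean square distance of mean-centred log2 CPM over the 5 libraries. For CDX2 they were WDR3 (distance 0.013), CISD3 (0.015) and RUVBL1 (0.015). For CDH17 they were the unnamed gene ENSG00000280417 (0.040), TRIOBP (0.045) and MTMR9 (0.049). For HNF4G they were TMEM236 (0.063), PKLR (0.146) and HOXA3 (0.163). For PDX1 they were TCAF1P1 (0.030), VANGL2 (0.033) and PXMP2 (0.036). With 5 libraries many genes can share a pattern, and these distances are a description.

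Most other factors of the gut network were absent, and the few that were expressed moved both ways. Of 22 further gut transcription factors 8 passed the filter, 2 rose and 1 fell, with a median log2 fold change of -0.06 against 0.005 over all tested genes, of which 10.5% were called. GATA4, GATA5, FOXA2 and ELF3, partners of the 7 factors in gut and liver, had 3 or fewer reads in each library. KLF5, a factor of proliferating crypt cells, rose from 12.6 ± 1.15 (SD, n = 2) to 20.7 ± 2.23 CPM (SD, n = 3; log2 fold change 0.71 ± 0.13 SE, adjusted p 0.0147, edgeR). FOXA1, a pioneer factor of endoderm, measured 7.37, 6.04 and 5.47 CPM in siIDT, sino4 and siSMPLT against 4.17 and 3.57 CPM in siL2 and siNT (log2 fold change 0.70 ± 0.17 SE, adjusted p 0.0394, edgeR). SOX9, a crypt and Paneth cell factor, missed the threshold at 2.38 ± 0.499 (SD, n = 3) against 4.16 ± 0.926 CPM (SD, n = 2; log2 fold change -0.81 ± 0.22 SE, adjusted p 0.0523, edgeR).

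The sizes of the KLF5 and FOXA1 changes moved little when 1 library was left out, while several calls were lost. Log2 fold changes then lay between 0.62 and 0.81 for KLF5 and between 0.57 and 0.82 for FOXA1. SOX9 moved more, with -1.02 without siL2 and -0.56 without siNT. In edgeR, SOX9 passed the threshold with RSEM counts (adjusted p 0.0481) and with reads without regard to strand (0.0477). SOX9 also passed in the DESeq2 Wald test (adjusted p 0.0257). It missed with limma-voom (adjusted p 0.0543), and in edgeR with DESeq2 size factors (0.0513) and with no filter (0.0567). ONECUT2 changed sign, with -0.30 without siL2 and 0.49 without siNT. KLF5 was lost without siIDT (adjusted p 0.0611) and sino4 (0.084), and FOXA1 without siIDT (0.131), sino4 (0.135), siSMPLT (0.0523) and siNT (0.079). Over those settings and the others tried, adjusted p ranged from 5.69e-05 to 0.084 for KLF5 and 0.0116 to 0.135 for FOXA1. ATOH1 (log2 fold change 0.15), ONECUT2 (0.04), GFI1 (-0.17) and VDR (-0.45) were not called in the fit to all 5 libraries. For VDR the log2 fold change was -0.62 without siL2 and -0.25 without siNT.

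The enterocyte programme that CDX2 and the HNF4 factors are known to serve was mostly silent, and 3 of its genes rose with USP17 siRNA. Of 44 enterocyte and brush border genes 30 did not pass the filter, and 13 of these, among them FABP1, CEACAM5, SLC26A3, AQP8 and CDHR5, had 0 reads in all 5 libraries. Of the 14 tested, 3 rose and none fell, and the median log2 fold change was 0.15; over all tested genes 4.64% were called higher. GPA33, an intestinal surface antigen, rose from 1.25 and 1.27 CPM in siL2 and siNT to 3.40, 3.44 and 3.85 CPM (log2 fold change 1.49 ± 0.18 SE, adjusted p 0.0048, edgeR). It was called in all settings tried (adjusted p 2.76e-06 to 0.0369). SI, the brush border sucrase-isomaltase, measured 3.64, 1.49 and 1.31 CPM in siIDT, sino4 and siSMPLT against 0.525 and 0.255 CPM in siL2 and siNT (log2 fold change 2.46 ± 0.56 SE, adjusted p 0.0306, edgeR). GUCY2C, the guanylin receptor of the gut, measured 0.857, 1.12 and 1.63 CPM against 0.496 and 0.368 CPM (log2 fold change 1.47 ± 0.36 SE, adjusted p 0.0389, edgeR).

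SI and GUCY2C are low-count genes. For SI the log2 fold change was 1.84 without siIDT and 3.06 without siL2, both more than 1.5 times away in fold from its value over all libraries. SI was lost without siIDT (adjusted p 0.0581), sino4 (0.0727) and siNT (0.0793), with a range of 0.000272 to 0.0793 over all settings. GUCY2C was lost without siIDT (0.0607), sino4 (0.117), siSMPLT (0.0882) and siNT (0.0953), with RSEM counts (0.0756) and with limma-voom (0.0511), over a range of 0.0238 to 0.117. Its log2 fold change without 1 library lay between 1.18 and 1.69. FABP2, the intestinal fatty acid binding protein, stood at 3.12, 4.18 and 3.25 against 1.14 and 2.32 CPM (log2 fold change 1.02 ± 0.29 SE, adjusted p 0.0603, edgeR). MEP1B, a brush border metalloprotease, was well expressed at 112, 124 and 138 against 158 and 145 CPM and was not called (log2 fold change -0.29 ± 0.10 SE, adjusted p 0.0943, edgeR). KRT20 (0.77), EZR (0.17) and CA2 (-0.44) were not called either in the fit to all libraries. The enterocyte and brush border genes that passed can be read in the plot of their fold changes.

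**Figure D4:**
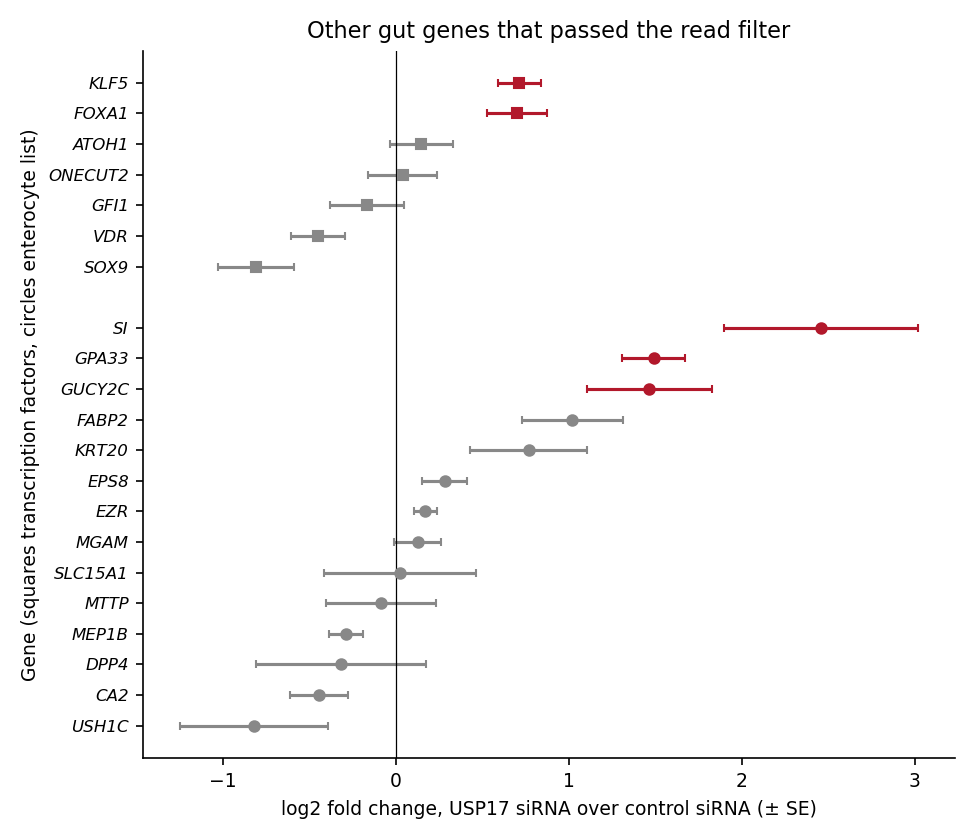
Log2 fold change with SE of 7 other gut transcription factors (squares) and 14 enterocyte and brush border genes (circles) that passed the read filter. Red marks genes called higher (KLF5, FOXA1, SI, GPA33 and GUCY2C); grey genes were not called.

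The other lineages that PDX1, HNF4A and GATA6 serve were barely represented. Of 15 goblet and secretory genes 13 did not pass the filter and MUC2, TFF3 and SPINK4 had 0 reads throughout. Of 29 genes of stomach, pancreas and liver 26 did not pass, and INS, PTF1A, TTR and AFP had 0 reads. The genes tested were MUC4, LYZ, BARX1, NKX6-1 and ISL1, and none was called by edgeR, by DESeq2 or by limma-voom, nor under the other settings (0 at an unadjusted p under 0.05 in edgeR). NKX6-1, an islet factor, was expressed at 9.27, 9.01 and 13.1 CPM in siIDT, sino4 and siSMPLT and 11.2 and 13.4 CPM in siL2 and siNT (log2 fold change -0.24 ± 0.18 SE, adjusted p 0.426, edgeR).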

How the data were processed

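Poly(A) RNA of 5 COLO 320DM libraries was sequenced. Per the submitters' processing notes, bcl2fastq 2.20, STAR 2.7.1a and RSEM 1.3.2 were used with GRCh38; neither annotation release nor strand setting is named there. The deposited read count tables hold whole-number counts per gene in STAR's layout, and column 3, the sense strand of each gene, was used because it was 18.7 to 19.9 times as full as the antisense column. Reads on no gene, or unmapped, multi-mapped or ambiguous, were 22.8% to 24.4% and were left out. The deposited RSEM tables hold expected counts, TPM and other values, the transcript lengths in bases, that the authors estimated with RSEM. TPM was used for levels between genes and CPM for comparisons between libraries.

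Symbols were found for 60635 of 60651 gene identifiers, and GENCODE 29 (GRCh38) gave positions for 58405. Counts were fitted in R 4.3.3 with edgeR 4.0.16 (filterByExpr, minimum count 10, minimum total 15, TMM, quasi-likelihood F test, two-sided) and Benjamini-Hochberg adjustment over all 16341 tested genes at 0.05. Log2 values per library used a prior count of 2. The fit was checked on data with known changes. Alternatives were DESeq2 1.42.0 (size factors and Wald test), limma-voom (limma 3.58.1), no filter, RSEM expected counts rounded to whole numbers, reads without regard to strand, an adjusted p of 0.10, and leaving out each library.

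The 7 genes and the gene lists were chosen with earlier results of these data known. Named genes were the 7, up to 4 genes per list with the smallest p, called list genes, tested genes near PDX1 and CDX2, antisense genes, the nearest patterns, the USP17L family and CTNNB1. Other genes named were chosen after their values were seen. Some list genes are counted in the lists but not reported here by name. Promoter windows came from RefSeq (GRCh38.p14). Figures were drawn in Python 3.11.15 with matplotlib 3.10.9.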

Additional observations from a re-analysis of the deposited data

Results flagged for a closer look

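In 3 list genes that did not pass the filter, the CPM on the opposite strand was higher in all USP17 libraries than in both controls. No comparison used that column. These reads numbered more than 3 in each library and more than those on the gene's own strand. Opposite to VIL1, the brush border villin, lay 28.1 ± 0.868 (SD, n = 3) against 18.6 ± 2.30 CPM (SD, n = 2), with 3 to 7 own-strand reads. Opposite to CLDN18 lay 0.618 ± 0.102 (SD, n = 3) against 0.332 ± 0.109 CPM (SD, n = 2), from 9 to 22 reads per library. Opposite to PAX6 lay 1.44 ± 0.208 (SD, n = 3) against 1.15 ± 0.219 CPM (SD, n = 2). For PAX6, siSMPLT (1.313 CPM, 42 reads) was barely above siNT (1.302 CPM, 46 reads). Which transcripts the reads come from was not tested.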

How the results depend on the processing

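Without 1 library the count of called genes, 1710 over all genes, ranged from 130 to 2633, that of the 7 gut genes from 2 to 3, of other gut transcription factors from 0 to 4 and of enterocyte genes from 1 to 5. Where 1 control is left out, the spread of the USP17 group stands in for that of the other control. An adjusted p of 0.10 gave 3074 genes over all and 5 enterocyte genes. Counting without strand gave 5 other gut transcription factors (SOX9 among those added). A window of 100 kb left 0 called neighbours, since PAN3 and HMGXB3 lie beyond it. The difference in CDX2 transcript length, -12.5 bases, ranged from -24.3 to -0.77 without 1 library. The log2 fold changes kept their direction in all settings: CDX2 -0.35 to -0.28, PDX1 0.09 to 0.29, HNF4G 1.42 to 1.77 and CDH17 0.85 to 0.91 without 1 library. Apart from fewer libraries, a changed threshold or window and the strand, the cause of a change was not tested. No paired analysis was possible because the labels give no replicate numbers. CDX1, HNF4A and GATA6 lie at the limit of depth in every setting.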
